A study of Mus musculus with 20 samples.

Results

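The immediate early transcription factor genes examined here, 10 in number, were the zinc finger genes Egr1, Egr2 and Egr3, the FOS family genes Fos, Fosb and Fosl1, the JUN family genes Jun and Junb, the stress-responsive factor Atf3 and the nuclear receptor Nr4a1. Their RNA was measured in C2C12 myotubes overexpressing Per1 or Per2. The members were taken by gene symbol from the 55335 genes measured. They were chosen with earlier results of these data known, so their counts are not independent evidence. All 10 were in the table, and all 10 passed the filter on low values in both comparisons. The study asked how sustained accumulation of the molecular clock suppressors PER1 and PER2 alters myotubes, and sequenced polyadenylated RNA from 20 cultures. C2C12 is a mouse myoblast line that fuses into multinucleated myotubes when serum is reduced.

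Every culture was differentiated in horse serum with insulin and received adenovirus on day 4 of differentiation. The vectors carried Per1 + Gfp, Per2 + Gfp or Gfp only, with every gene under its own cytomegalovirus promoter, so that green fluorescent protein was present in all 4 groups. Libraries were made from 48 h experiments. The 5 Per1 libraries (numbers 11 to 15) were compared with 5 Gfp libraries (11, 13, 14, 15 and 16), and 5 Per2 libraries (1 to 5) with 5 other Gfp libraries (1 to 5). According to the study's methods the Per viruses were given at a higher concentration than the Gfp virus, and the dose of virus cannot be told apart from Per in either comparison. The study drew its sequenced RNA from cultures within an experimental replicate, and does not say whether both comparisons shared that replicate. A p value here is therefore a measure of the spread among those cultures alone, which may be technical.

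Immediate early genes are transcribed within minutes of a stimulus such as serum, growth factors, stretch or stress, without new protein synthesis. Serum response factor (SRF) with its ternary complex partners and the cyclic AMP response element-binding protein (CREB), phosphorylated downstream of MAP kinases, sit at their promoters beforehand, and the mRNAs are short lived. FOS and JUN proteins pair to form activator protein 1 (AP-1). EGR proteins bind GC-rich sites, and NAB1 and NAB2 are their corepressors. In muscle cells these genes are known for their response to exercise, injury and serum, and AP-1 is known to oppose myogenic factors.

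The stretch just upstream of the start of transcription is shown for 6 members because SRF and CREB act through short sites there and because most of these genes moved together. Windows were taken from RefSeq on build GRCm38.p6, in which 7 of the 10 members had at least 1 window (11 windows in all). No window was available here for Egr1, Egr3 and Fosl1. The window of Nr4a1 is not printed because at least a part of it matched an annotated transcript. Each line gives 150 bases read 5′ to 3′ on the strand of the gene and ending at the base before the start. Capitals mark the serum response element core (CArG box) and the CREB half-site TGACG, or CGTCA where it lies on the other strand. Egr2, at chr10:67537719-67537868 on the plus strand, held 1 CArG box and 2 half-sites. It is 1 of 5 Egr2 windows and was picked with its matches in view. The window farthest upstream, at chr10:67535349-67535498, held an E-box and neither a CArG box nor a half-site. Fos, at chr12:85473740-85473889 on the plus strand, held 2 half-sites. Fosb, at chr7:19310046-19310195 on the minus strand, held 1 half-site and 1 EGR site (GCGNGGGCG, left in lower case). Junb, at chr8:84978749-84978898 on the minus strand, and Atf3, at chr1:191183334-191183483 on the minus strand, held 1 half-site each. Jun, at chr4:95052223-95052372 on the minus strand, held no match to any motif searched.
Egr2: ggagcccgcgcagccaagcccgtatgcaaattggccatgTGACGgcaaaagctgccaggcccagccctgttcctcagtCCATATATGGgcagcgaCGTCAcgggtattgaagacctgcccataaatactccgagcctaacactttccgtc
Fos: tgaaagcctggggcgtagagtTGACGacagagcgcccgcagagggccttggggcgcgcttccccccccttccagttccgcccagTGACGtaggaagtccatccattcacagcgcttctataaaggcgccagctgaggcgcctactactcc
Fosb: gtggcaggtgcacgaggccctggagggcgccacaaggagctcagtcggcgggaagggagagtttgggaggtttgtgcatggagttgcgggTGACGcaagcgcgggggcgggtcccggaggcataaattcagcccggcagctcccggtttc
Junb: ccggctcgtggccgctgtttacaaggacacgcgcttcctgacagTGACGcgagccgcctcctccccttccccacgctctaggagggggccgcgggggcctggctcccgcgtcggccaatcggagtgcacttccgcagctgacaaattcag
Atf3: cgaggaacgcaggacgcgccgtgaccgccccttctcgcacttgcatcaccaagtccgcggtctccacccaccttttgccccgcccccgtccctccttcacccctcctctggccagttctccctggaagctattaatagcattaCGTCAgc
Jun: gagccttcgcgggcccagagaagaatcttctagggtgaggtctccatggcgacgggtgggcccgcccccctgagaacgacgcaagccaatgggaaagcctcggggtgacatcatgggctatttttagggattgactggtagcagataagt

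Both strands of the 250 bases upstream of 32851 starts were searched for the same motifs. The CArG box was present in 1.47% of them, TGACG in 17.8%, the AP-1 site TGANTCA in 6.75%, the EGR site GCGNGGGCG in 4.70% and the E-box CACGTG, through which the clock activators act, in 6.02%. Matches could share bases, as a full palindromic CREB site holds a half-site on each strand. The motifs were chosen with the sequences in view, and a match is a description of letters in a window. Only exact matches counted, so a variant of a site, or a site farther upstream, was not seen. The longer window of Nr4a1 held 4 half-sites and 1 EGR site.

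The values are regularized log2 counts (rlog), computed by the authors, in which differences between libraries are drawn toward 0. An rlog difference of 1 is nominally a doubling, and the folds below are therefore understated to an unknown degree. They are not scaled to gene length, so no level is compared between genes. A gene was called at a Benjamini-Hochberg adjusted p of at most 0.05 over all genes tested with limma, and a stricter call also required a difference of at least 0.5 in size. The transgenes followed their labels. Per1 rlog was 15.27 ± 0.028 (SD, n = 5) in Gfp and 19.58 ± 0.11 in Per1 libraries, and Per2 rlog was 14.82 ± 0.11 in Gfp and 19.71 ± 0.051 in Per2 libraries. The root mean square deviation of a library from its group mean lay between 0.0378 and 0.0558 rlog units in all 20, and no library stood apart. Depth is unknown because the files hold no counts.

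With Per1, 9 of the 10 members fell, and the same 9 genes, all except Jun, fell with Per2. With Per1 the 9 members called lower stood against 20.6% of the 20559 genes tested that were called lower, and the 1 member called higher, Jun, against 20.1% called higher. With Per2 the 9 members called lower stood against 17.5% of 20628 genes, and no member was called higher, against 18.6%. The median difference of the members was −0.31 with Per1 and −0.28 with Per2, where the medians over all genes tested were 0.0011 and 0.0006. In both comparisons together, 9 of 10 members (90%) were lower at the adjusted p, against 2134 of 20153 genes tested in both (10.6%). The 2 comparisons used different Gfp libraries.

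Most differences were small on the rlog scale. With the size of 0.5 also required, 2 members were lower with Per1 (Egr2 and Egr3), against 0.253% of genes, and none was higher, against 0.443%. With Per2 only Atf3 met it among the members, against 0.296% of genes called lower, and none was higher, against 0.325%. Every Per1 library was below every Gfp library for 8 members, against 15% of genes. Every Per2 library was below every Gfp library for 9 members, against 12.8% of genes.

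**Figure D1:**
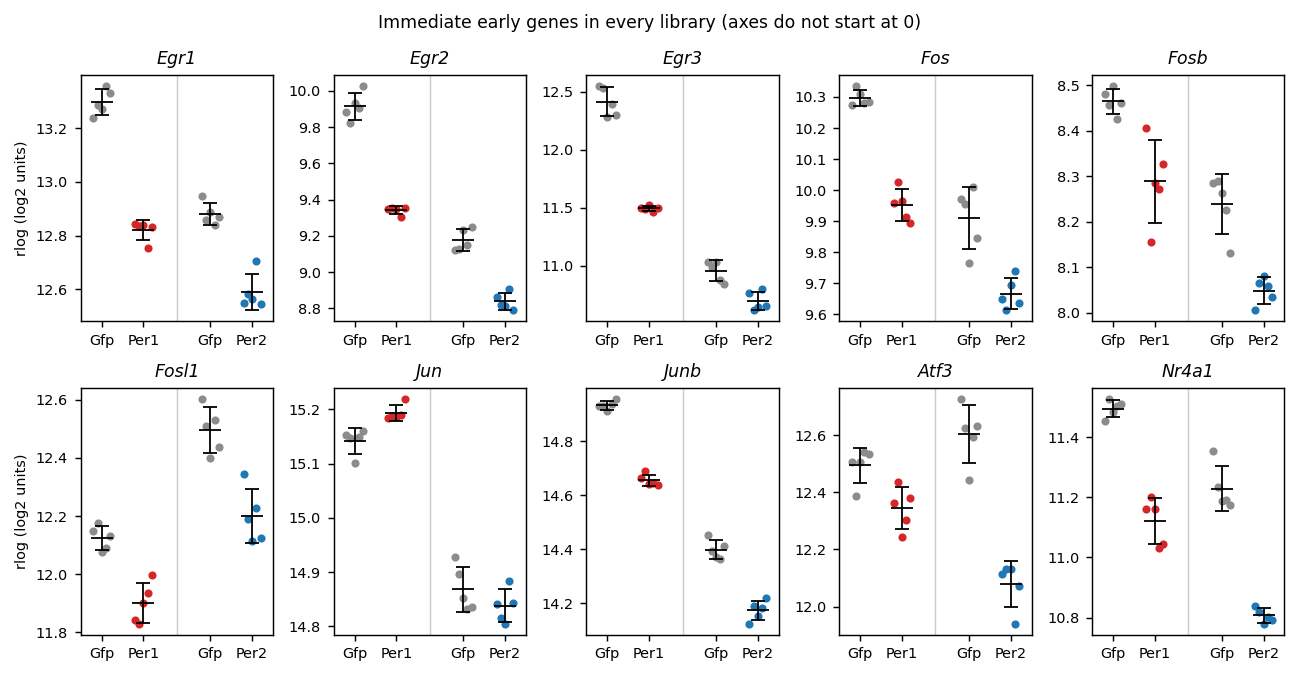
Rlog value (log2 units) of each member in every library, with Gfp in grey, Per1 in red and Per2 in blue, the Per1 experiment left of each divider and the Per2 experiment right of it, and bars giving the mean and SD of 5 libraries. Axes differ between genes and do not start at 0. The red points lie wholly below their grey points in 8 panels and the blue points in 9, and Jun and, with Per1, Atf3 are the exceptions.

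The EGR genes encode zinc finger activators induced by serum and growth factors, and all 3 fell with each virus. With Per1, Egr3 (ENSMUSG00000033730.4, chr14:70314350-70320063 on GRCm39), known in muscle for the formation of muscle spindles, had the largest fall of any member. Its rlog was 12.55, 12.53, 12.29, 12.40 and 12.30 in Gfp libraries 11, 13, 14, 15 and 16 and 11.49, 11.49, 11.53, 11.46 and 11.50 in Per1 libraries 11 to 15. The 5 Per1 libraries lay within a far narrower span than the Gfp libraries and nowhere near them. The difference was −0.92 (SE 0.045, adjusted p = 2.02e-09), a ratio of 0.529 on the shrunken scale, and it had rank 6 from the lowest among 20559 genes.

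Egr3 moved less with Per2. Its rlog was 11.03, 10.99, 11.03, 10.87 and 10.84 in Gfp libraries 1 to 5 and 10.76, 10.62, 10.64, 10.80 and 10.65 in Per2 libraries 1 to 5. The groups did not overlap, but the highest Per2 library, number 4, came close to the lowest Gfp library. The difference was −0.26 (SE 0.045, adjusted p = 0.000419), with rank 359 from the lowest of 20628. Differences of −0.92 and −0.26 are given side by side, and the difference between them was not tested because the experiments had been transformed separately.

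Egr2 (ENSMUSG00000037868.15, chr10:67371305-67378018 on GRCm39), known for its role in myelination and as a growth factor response gene, was the member whose printed window held the CArG box. Its rlog was 9.88, 9.82, 9.93, 9.91 and 10.03 in the Gfp libraries of the Per1 experiment and 9.35, 9.35, 9.35, 9.31 and 9.36 in Per1 libraries. It fell by 0.57 (SE 0.034, adjusted p = 1.20e-08), and the groups were far apart. In the Per2 experiment it was 9.12, 9.13, 9.23, 9.15 and 9.25 with Gfp and 8.86, 8.82, 8.81, 8.91 and 8.79 with Per2. It fell by 0.34 (SE 0.035, adjusted p = 5.19e-06), again with no overlap.

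Egr1 (ENSMUSG00000038418.7, chromosome 18), the founding member of the family, is induced by almost every mitogen. Its rlog was 13.24, 13.29, 13.27, 13.36 and 13.33 with Gfp and 12.84, 12.84, 12.84, 12.75 and 12.83 with Per1. The Per1 libraries were nearly alike except for library 14, which was lower. The difference was −0.48 (SE 0.024, adjusted p = 2.88e-09), just short of the size of 0.5. With Per2 the values were 12.95, 12.86, 12.89, 12.84 and 12.87 in Gfp and 12.55, 12.58, 12.56, 12.71 and 12.54 in Per2 libraries, where library 4 was the highest and still below every Gfp library. The difference was −0.29 (SE 0.031, adjusted p = 6.36e-06).

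The genes for the corepressors of EGR proteins did not move together. Nab2, the more inducible partner, fell by 0.30 with Per1 (adjusted p = 2.25e-08) and by 0.12 with Per2 (adjusted p = 0.000833). Nab1 rose, by 0.09 with Per1 (adjusted p = 0.0018) and by 0.08 with Per2 (adjusted p = 0.0195).

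The FOS family genes encode the AP-1 subunits that must pair with a JUN protein to bind DNA, and all 3 members fell with each virus. Fos (ENSMUSG00000021250.13, chr12:85520658-85524047 on GRCm39), the classical serum-induced gene, was 10.27, 10.34, 10.31, 10.28 and 10.28 with Gfp and 9.96, 10.03, 9.97, 9.91 and 9.89 with Per1. The highest Per1 library was well under the lowest Gfp library. The difference was −0.34 (SE 0.028, adjusted p = 2.46e-07). In the Per2 experiment it was 9.97, 9.96, 9.77, 10.01 and 9.85 with Gfp and 9.65, 9.61, 9.69, 9.74 and 9.64 with Per2. Gfp libraries spread more here (SD 0.10), and Gfp library 3 sat just above Per2 library 4. The difference was −0.24 (SE 0.044, adjusted p = 0.000593).

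Fosb (ENSMUSG00000003545.3, chr7:19036621-19043976 on GRCm39), whose stable splice form accumulates on repeated stimulation in brain, had a small fall in both comparisons, and the values here do not separate its splice forms. Its rlog was 8.48, 8.46, 8.50, 8.43 and 8.46 with Gfp and 8.41, 8.16, 8.29, 8.27 and 8.33 with Per1, where library 11 was close to the Gfp group and library 12 the lowest. The difference was −0.18 (SE 0.040, adjusted p = 0.00271). With Per2 it was 8.29, 8.29, 8.26, 8.23 and 8.13 in Gfp and 8.01, 8.06, 8.08, 8.06 and 8.03 in Per2 libraries. The difference was −0.19 (SE 0.034, adjusted p = 0.000613), and the groups did not overlap.

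Fosl1 (ENSMUSG00000024912.6, chr19:5497575-5505974 on GRCm39) encodes FRA1, a subunit without the activation domain of FOS that is itself an AP-1 target. It was 12.15, 12.18, 12.08, 12.09 and 12.13 with Gfp and 11.84, 11.83, 11.90, 11.94 and 12.00 with Per1. All 5 Per1 libraries were below the Gfp group, and the difference was −0.22 (SE 0.031, adjusted p = 4.41e-05). In the Per2 experiment it was 12.60, 12.51, 12.40, 12.53 and 12.44 with Gfp and 12.34, 12.19, 12.12, 12.23 and 12.12 with Per2. The difference was −0.30 (SE 0.044, adjusted p = 0.000132), and Per2 library 1 was the nearest to the Gfp group.

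The 2 JUN family members behaved differently. Junb (ENSMUSG00000052837.6, chr8:85701113-85705359 on GRCm39), which is also known to maintain muscle fibre size in mice, fell with each virus and with little spread. Its rlog was 14.93, 14.93, 14.91, 14.94 and 14.96 with Gfp and 14.66, 14.69, 14.64, 14.65 and 14.64 with Per1, a difference of −0.28 (SE 0.015, adjusted p = 6.06e-09). In the Per2 experiment it was 14.45, 14.39, 14.37, 14.36 and 14.41 with Gfp and 14.13, 14.19, 14.15, 14.18 and 14.22 with Per2, a difference of −0.22 (SE 0.022, adjusted p = 3.35e-06). Neither comparison had any overlap.

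Jun (ENSMUSG00000052684.4, chr4:94937271-94940459 on GRCm39), the subunit that can pair with itself as well as with FOS proteins, did not fall. It was 15.15, 15.15, 15.10, 15.15 and 15.16 with Gfp and 15.18, 15.19, 15.19, 15.19 and 15.22 with Per1. The Per1 values were all higher than the Gfp values, but by very little. It rose by 0.051 (SE 0.016, 95% interval 0.018 to 0.084, adjusted p = 0.0161). That call was lost when libraries were centred on their median (0.029, adjusted p = 0.20) and without Per1 library 15 (0.045, adjusted p = 0.0522).

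With Per2 the Jun values were 14.93, 14.90, 14.85, 14.83 and 14.83 in Gfp and 14.84, 14.82, 14.81, 14.88 and 14.84 in Per2 libraries, and the groups overlapped. The difference was −0.031 (SE 0.022, adjusted p = 0.31) with a 95% interval of −0.079 to 0.017. Both intervals of Jun lay above those of every other member in the same comparison.

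Atf3 (ENSMUSG00000026628.13, chr1:190902493-190950241 on GRCm39), a repressor of the CREB family induced by many stresses, had the smallest fall of the 9 with Per1 and the largest fall with Per2. With Per1 its rlog was 12.36, 12.44, 12.24, 12.30 and 12.38, against 12.50, 12.39, 12.51, 12.54 and 12.53 with Gfp. Gfp library 13 lay below Per1 library 12, so the groups overlapped. The difference was −0.15 (SE 0.036, adjusted p = 0.00385). With Per2 it was 12.11, 12.13, 12.13, 11.94 and 12.07, against 12.73, 12.62, 12.44, 12.59 and 12.63 with Gfp, and even the lowest Gfp library was far above the Per2 group.

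Atf3 fell by 0.53 with Per2 (SE 0.047, adjusted p = 1.29e-06), a ratio of 0.694 on the shrunken scale and rank 51 from the lowest of 20628. The size of 0.5 was no longer reached without Gfp library 1 (−0.495) or without Per2 library 4 (−0.491), though the adjusted p stayed at 3.95e-06 or below. Whether Atf3 responds differently to Per1 and Per2 was not tested.

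Nr4a1 (ENSMUSG00000023034.7, chr15:101151980-101172681 on GRCm39) encodes the orphan nuclear receptor NUR77, known in muscle for the control of glucose and lipid metabolism. Its rlog was 11.45, 11.53, 11.48, 11.50 and 11.51 with Gfp and 11.16, 11.20, 11.16, 11.03 and 11.05 with Per1. The difference was −0.38 (SE 0.032, adjusted p = 4.22e-07), with no overlap. In the Per2 experiment it was 11.36, 11.23, 11.19, 11.19 and 11.18 with Gfp and 10.84, 10.82, 10.78, 10.80 and 10.79 with Per2. The Per2 libraries lay tightly together, and the difference was −0.42 (SE 0.032, adjusted p = 3.41e-07). Only Nr4a1, Fosb, Fosl1 and Atf3 had a larger fall with Per2 than with Per1 among the 9, and the sizes were not tested against each other.

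**Figure D2:**
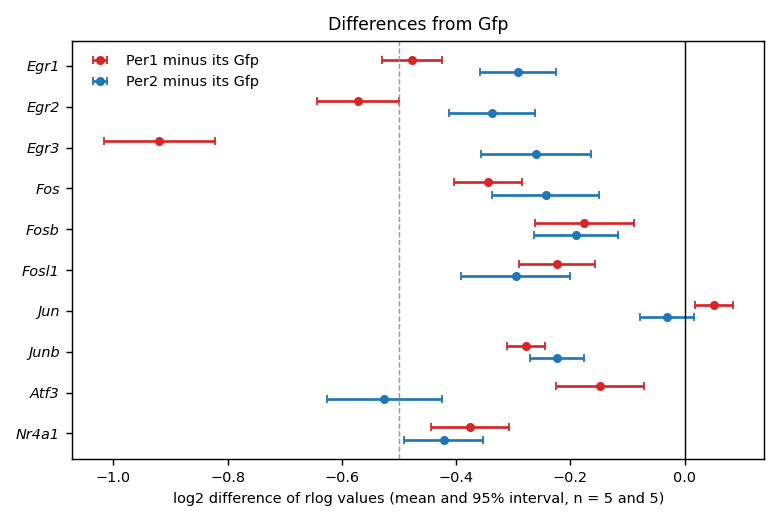
Difference in rlog between each Per group and its own Gfp group for the 10 members, with 95% intervals from limma (5 libraries against 5), Per1 in red and Per2 in blue. The dashed line marks −0.5. Egr3 with Per1 stands at −0.92, Atf3 with Per2 at −0.53, and the Per2 interval of Jun spans 0.

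The place of each member among all genes tested differed by member. With Per1 the share of genes with a difference at or below that of the member was 0.0292% for Egr3, 0.165% for Egr2 and 0.306% for Egr1, and 0.623% for Nr4a1. It was 4.88% for Fosb and 7.01% for Atf3, which were well inside the bulk of called genes, and 74.7% for Jun. With Per2 it was 0.247% for Atf3, 0.441% for Nr4a1 and 0.80% for Egr2, and the other 6 genes that fell lay between 1.15% and 3.94%. Jun stood at 30.8%.

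**Figure D3:**
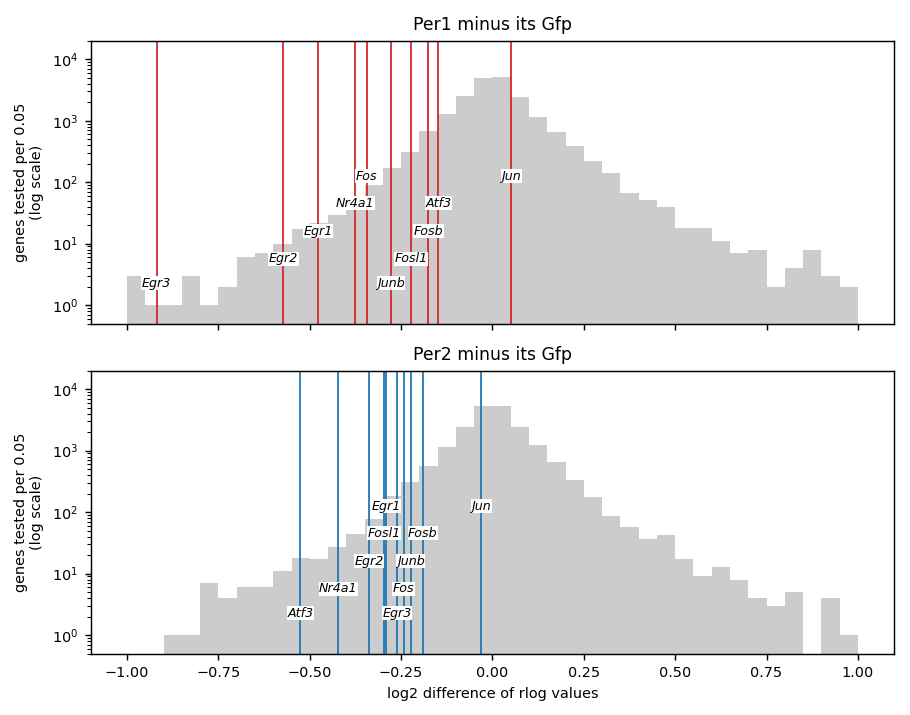
Number of genes tested per 0.05 of rlog difference (grey, log scale) for Per1 (upper) and Per2 (lower), with a line at the difference of each member. Genes beyond 1 in size are not drawn (2 lower and 10 higher with Per1, 7 lower and 3 higher with Per2). All lines but that of Jun lie left of 0 in the upper panel, and all lie left of 0 in the lower, with Egr3 far out in the tail with Per1 only, and Jun lies nearest to 0.

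Within groups, library 1 of the Gfp group of the Per2 experiment had the highest value for 7 of the 10 members, with a member mean of 11.74, where the other 4 libraries lay between 11.64 and 11.69. Per2 library 4 was the highest of its group for 5. The mean over the members lay between 12.04 and 12.07 in the Gfp and between 11.68 and 11.73 in the Per1 libraries, and between 11.64 and 11.74 in the Gfp and 11.37 and 11.42 in the Per2 libraries. Over the 20 group-centred libraries, Pearson's r between 2 members ran from −0.37 (Egr3 with Atf3) to 0.60 (Egr3 with Jun). These libraries share a transformation within each experiment, and the values are descriptions only.

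Genes whose group-centred values followed Egr1 most closely over the 20 libraries, among 20153 genes, were Stra6l (r = 0.841), Rsph1 (0.824), Mir17hg (0.775), H2aj (0.757) and Nod2 (0.747). Those closest to Fos were Smad4 (0.797), Cd38 (0.795), Mbd2 (0.768), Gm13316 (0.744) and Tns4 (0.737). No other member was among either set.

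Other immediate early genes were mostly lower too. Of 38 listed, 37 were tested (Egr4 was under the filter). With Per1, 28 fell and 6 rose, against 20.6% and 20.1% of all genes, with a median of −0.16. With Per2, 23 fell and 6 rose, against 17.5% and 18.6%, with a median of −0.11. In both comparisons 23 of 37 (62.2%) fell, against 10.6% of all genes. Ptgs2, which encodes the inducible cyclooxygenase COX-2, fell by 0.96 with Per1 (SE 0.039, adjusted p = 2.13e-10) and by 1.59 with Per2 (SE 0.053, adjusted p = 7.44e-11). The matricellular genes Ccn1 and Ccn2, known as targets of SRF and YAP, fell by 0.68 and 0.60 with Per1 and by 0.72 and 0.52 with Per2. Nfkbiz, which encodes an inducible nuclear partner of NF-κB, fell by 0.55 with Per1 and by 0.76 with Per2.

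These 4 genes were the ones that met the size of 0.5 with Per1, against 0.253% of all genes called lower. With Per2, 6 genes of the list met it, against 0.296% of all genes. They also held Csrnp1 (−0.56), which encodes a nuclear protein induced by AXIN1, and Myc (−0.54), the growth regulator. Both were named after their values were seen. Rgs2, Btg2, Bhlhe40 and Klf10 were also chosen after their values were seen. Rgs2, a regulator of G protein signalling, rose by 0.43 with Per1 and had a difference of 0.01 with Per2 (adjusted p = 0.886). Btg2, an antiproliferative gene, rose by 0.36 and 0.09. Bhlhe40, a repressor that also belongs to the clock, fell by 0.34 with Per1 and rose by 0.14 with Per2, and Klf10, a factor induced by TGF-β, fell by 0.22 and rose by 0.11. The NR4A relatives of Nr4a1, also named after their values were seen, were not uniform. Nr4a2 fell by 0.21 with Per1 and by 0.28 with Per2, while Nr4a3 fell by 0.20 with Per1 and had a difference of 0.00085 with Per2 (adjusted p = 0.99).

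The remaining AP-1 partners moved less. Of 10 tested with Per1, 4 fell and 2 rose, against 20.6% and 20.1% of all genes. Of 11 tested with Per2, 4 fell and 2 rose, against 17.5% and 18.6%. The medians were −0.050 and −0.0087. The 4 that fell with each virus were the small MAF genes Maff (−0.31 and −0.24), Mafk (−0.24 and −0.12) and Mafg (−0.17 and −0.22), whose products dimerize with AP-1 and NRF proteins, and the FOS relative Fosl2 (−0.16 and −0.12). Jund, the JUN family gene that is present without stimulation, was looked up after the result for Jun was seen. It rose by 0.10 with Per1 (adjusted p = 0.00113) and by 0.10 with Per2 (adjusted p = 0.000688).

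Genes for the factors that act on immediate early promoters showed no common direction. Among 12 genes for SRF, its partners and CREB, 5 fell and 2 rose with Per1, against 20.6% and 20.1% of all genes. With Per2, 3 fell and 4 rose, against 17.5% and 18.6%. The medians were −0.043 and −0.0040. The ternary complex factor gene Elk4 fell by 0.26 and 0.11, whereas Elk3, which can act as a repressor, rose by 0.21 in both. Atf1, a CREB relative, fell by 0.18 and 0.14, and Elk1 fell by 0.08 with Per1 and rose by 0.17 with Per2. Srf itself, added after its value was seen, fell by 0.12 (adjusted p = 0.000381) and 0.11 (adjusted p = 0.00596).

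Of the 13 MAP kinase pathway genes tested, 4 fell and 3 rose with Per1, against 20.6% and 20.1% of all genes. With Per2, 2 fell and 5 rose, against 17.5% and 18.6%. The medians were −0.014 and 0.0020. Mapkapk2, a kinase downstream of p38, fell by 0.17 with Per1 and had a difference of −0.01 with Per2 (adjusted p = 0.668). Rps6ka1, which encodes the kinase RSK1, fell by 0.12 and 0.17, and Mapk7, which encodes ERK5, rose by 0.12 and 0.07. Rps6ka5, which encodes the CREB kinase MSK1, had a difference of 0.09 with Per1 (adjusted p = 0.196) and fell by 0.13 with Per2. Transcript levels do not measure kinase activity.

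The integrated stress response is known to induce Atf3 through ATF4. With Per1, 1 of 8 genes fell and 2 rose, against 20.6% and 20.1% of all genes, with a median of 0.051. With Per2, 6 of 8 fell and 1 rose, against 17.5% and 18.6%, with a median of −0.19. Ppp1r15a, the phosphatase subunit that ends the response, fell by 0.16 with Per1 and by 0.35 with Per2. Asns, asparagine synthetase, had a difference of 0.02 with Per1 (adjusted p = 0.636) and fell by 0.26 with Per2, and Sesn2, a stress-induced inhibitor of mTORC1 signalling, rose by 0.08 with Per1 and fell by 0.20 with Per2. Vldlr, which encodes a lipoprotein receptor, was the 1 gene of this list that rose with Per2 (0.29), and Atf4, added after its value was seen, had a difference of −0.026 with Per1 (adjusted p = 0.41) and fell by 0.15 with Per2.

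**Figure D4:**
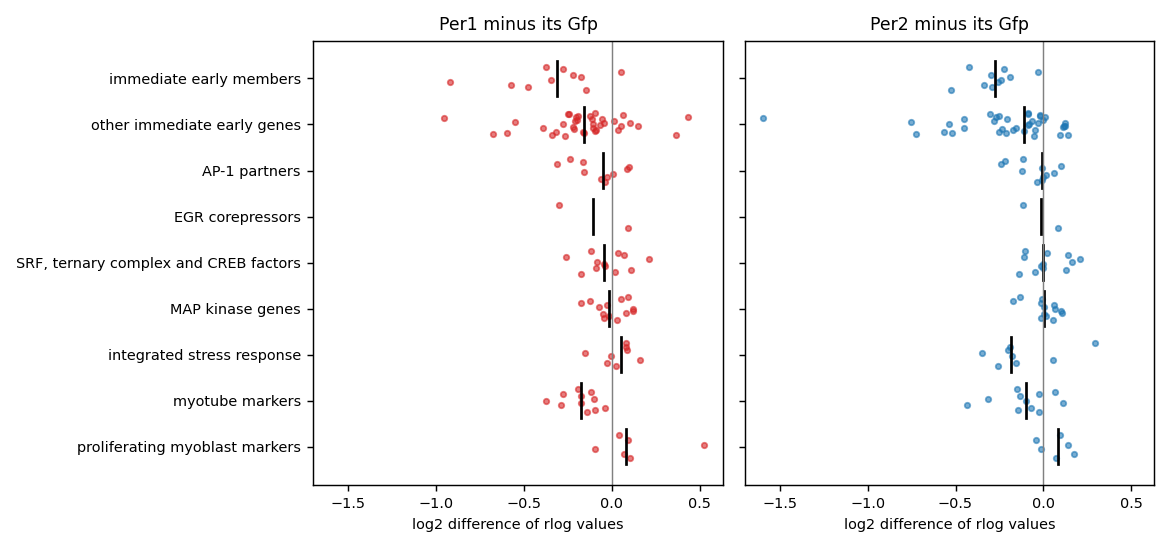
Difference in rlog from Gfp for every tested gene (points) of the 10 members and of 8 other lists, with Per1 left and Per2 right and a bar at the median of each list. The medians of the members (−0.31 and −0.28) and of the other immediate early genes (−0.16 and −0.11) lie left of 0 in both panels, and that of the integrated stress response lies at 0.051 with Per1 and at −0.19 with Per2.

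In these bulk samples, fewer cells of a type and less RNA per cell cannot be told apart. Myotube markers were abundant in every library. With Per1, 10 of 11 fell, against 20.6% of all genes. With Per2, 4 of 11 fell, against 17.5%, and 1 rose, against 18.6%. Their mean lay between 16.62 and 16.66 in the Gfp and 16.40 and 16.49 in the Per1 libraries, and between 16.13 and 16.34 in the Gfp and 16.06 and 16.15 in the Per2 libraries, which overlapped. The myosin heavy chain genes Myh1 (−0.29 and −0.44) and Myh8 (−0.10 and −0.31) fell with each virus. Myh4 fell by 0.37 with Per1 and had a difference of −0.10 with Per2 (adjusted p = 0.201), and the fusion gene Mymx fell by 0.28 with Per1 and had a difference of −0.02 with Per2 (adjusted p = 0.751). Myh3, the embryonic myosin gene, named after its values were seen, fell by 0.18 with Per1 and rose by 0.11 with Per2 (adjusted p = 0.0357). Of 6 markers of proliferating myoblasts, 3 were higher and 1 lower with Per1, where 20.1% of all genes were called higher, and 3 were higher and none lower with Per2, where 18.6% were. Their mean lay between 13.50 and 13.61 in the Gfp and 13.64 and 13.76 in the Per1 libraries, and between 13.49 and 13.61 in the Gfp and 13.56 and 13.72 in the Per2 libraries, which overlapped. Myf5, a myoblast factor, rose by 0.53 and 0.14, and Cdk1, a cell cycle kinase, had a difference of 0.07 with Per1 (adjusted p = 0.0791) and rose by 0.17 with Per2. Ccnb1 rose by 0.10 with Per1 (adjusted p = 0.0337). The proliferation marker Mki67 fell by 0.10 with Per1 (adjusted p = 0.0428) and had a difference of −0.01 with Per2 (adjusted p = 0.868).

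Fibroblast markers were higher for 2 of 5 genes with Per1, against 20.1% of all genes, and 3 of 5 with Per2, against 18.6%. None was called lower. Among the risers were Ly6a, which encodes SCA-1 (0.38 and 0.29), and the matrix gene Dcn (0.32 and 0.25). The collagen gene Col1a1 had a difference of 0.01 with Per1 (adjusted p = 0.815) and rose by 0.09 with Per2. Pdgfra (−0.12, adjusted p = 0.0929) and Lum (0.03, adjusted p = 0.175), named after their values were seen, were not called with Per1 either. The mean of the fibroblast markers ran from 11.86 to 11.92 in the Gfp and 11.98 to 12.04 in the Per1 libraries. It ran from 11.99 to 12.12 in the Gfp and 12.16 to 12.29 in the Per2 libraries. Among macrophage markers, the defining genes Adgre1 and Ptprc were under the filter with Per1 and Adgre1 with Per2. Endothelial markers had list means between 5.30 and 5.40. With Per1, 1 rose and 1 fell of 4 macrophage genes and 2 rose and 1 fell of 4 endothelial genes. With Per2, 2 of 5 and 3 of 4 fell and none rose. Of all genes, 20.6% were called lower and 20.1% higher with Per1, and 17.5% and 18.6% with Per2. Whether cell makeup changed, and whether it had a part in the falls of the immediate early genes, was not tested.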

How the data were processed

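C2C12 myotubes transduced with adenovirus were sequenced as 20 libraries in 4 groups of 5, assigned from the sample labels. Gfp libraries were put in an experiment by library number (1 to 5, or 11 and 13 to 16). STAR alignment and gene counting were done by the authors, who deposited log2 values regularized with DESeq2 (rlog), a transformation that shrinks differences. No counts were used here, so depth and counting error are unknown. The genome is GRCm39 in the study's methods and mm10 in the labels, and read length also differs between them. The experiments had been transformed separately, as 2712 genes had the value 0 throughout the Per1 experiment alone and 2391 throughout the Per2 experiment alone, so each Per group was compared with its own Gfp group.

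Genes whose rlog averaged 3 or more in an experiment entered the fit with limma 3.58.1 in R 4.3.3 (trend, two-sided), with Benjamini-Hochberg adjustment over all of them and thresholds of 0.05 and 0.5. Symbols came from GENCODE M39, which held 51654 of 55335 gene IDs. The fit was also run on simulated data with 200 changed genes, and the outcome is not given here. Named genes were the 10 members, Per1 and Per2, up to 4 genes of each other list past the adjusted p with the largest size, and the 5 genes most like Egr1 and Fos. For the macrophage and endothelial lists, the genes past the adjusted p are given as counts, without names. Other genes are said, where they appear, to have been named after their values were seen. The members, lists and tests were chosen with earlier results of these data known, so no list is independent evidence. Motif searches used RefSeq windows on GRCm38.p6. The alternatives were no filter, a filter of 5, centring on the median, quantile normalization, a fit without the trend, weights per library, a size of 1, the replicate number as a block and leaving out each library.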

Additional observations from a re-analysis of the deposited data

Results flagged for a closer look

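Of the 40 combinations of member and group, 6 held a library whose gap to the nearest other library exceeded the share of the group's range allowed by Dixon's test (0.71 for 5 libraries). Chance alone flags about 1 in 20 groups. Egr1 stood at 12.71 in Per2 library 4, above its group, and at 12.75 in Per1 library 14, below its group. Egr2 was also low in Per1 library 14, at 9.31. Jun was low in Gfp library 14 of the Per1 experiment (15.10) and high in Per1 library 15 (15.22). Atf3 was low in Gfp library 13 of the Per1 experiment, at 12.39, which is the library that made its groups overlap. No explanation of these values was tested.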

How the results depend on the processing

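At the adjusted p, 9 members were lower in each comparison under every alternative run, with or without any 1 library. The size of 1 could not change this count. The number of members higher with Per1 was 1 and became 0 with median centring and 0 without Per1 library 15 (range 0 to 1 over leaving out each library), because the call of Jun was lost. With a size of 1 in place of 0.5, 0 members were called lower with Per1 (2 before) and 0 with Per2 (1 before). Leaving out each library gave 0 to 1 members past the size of 0.5 with Per2, with 0 without Gfp library 1 or Per2 library 4, and 2 throughout with Per1. With the replicate number as a block, 9 members were lower in each comparison and no call of a member changed. For Per1 this fit left out Per1 library 12 and Gfp library 16, whose numbers had no partner. Deviations of same-numbered libraries from their group means had correlations from −0.10 to 0.18. Differently numbered libraries were not set beside them, so whether the numbers pair the cultures was not settled. Of all values of single members under the alternatives, 358 kept their direction and their side of the threshold and 2 lost the call, both of Jun. Those under the size of 1 came unchanged from the main fit and could only stay the same. The median difference over all genes, 0.0011 with Per1 and 0.0006 with Per2 as deposited, was −0.021 in each comparison with median centring. Without counts, a missed difference in a weakly expressed gene cannot be weighed against depth, and rlog shrinkage draws the sizes toward 0 by an unknown amount.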
